A study of Mus musculus with 7 samples.

Results

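The expression of 10 genes of the choroid plexus epithelium was followed through ribosome-bound and total RNA of the ventricular wall: Ttr, Kcne2, Folr1, Clic6, Kl, Otx2, Aqp1, Slc4a5, Slc13a4 and Calml4. They were taken by symbol, and all 10 were found among the 32531 symbols of each of the 7 count tables. All 10 passed the filter on low counts. The libraries come from adult mice that carry the Dcdc2a-EGFP/Rpl10a transgene (line ES2575), in which ribosomes of cells using the Dcdc2a promoter bear an EGFP tag. The series is directed at ependymal cells, the ciliated lining of the ventricles. Tissue around the ventricles was homogenised, and 3 libraries hold RNA pulled down with the tag (IP 1, IP 3 and IP 4), while 4 hold total RNA of such homogenates (Input 1 to Input 4). Input mice carried the transgene too. An IP from mice without the tag was not analysed here, so RNA that came down without being on tagged ribosomes cannot be told apart from RNA that was. The labels do not give the sex, the exact age or the number of animals per library, and p-values therefore measure the spread between these libraries, which may be technical in part.

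The choroid plexus is a frond of epithelium that hangs into the ventricle, is continuous with the ependyma and secretes cerebrospinal fluid. Its cells move ions, bicarbonate and water from blood to ventricle, take up folate from the blood, and make transthyretin in very large amounts. Plexus and ependyma arise from the same neuroepithelium and both carry cilia, so that some genes are used in both tissues. A dissection of the ventricular wall can also take plexus along with it. The comparison of IP with Input asks which of these genes were enriched on the tagged ribosomes and which were no more abundant there than in the whole tissue.

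Calml4 and Slc13a4 rose in IP and the other 8 genes were not called. Calml4, which encodes a relative of calmodulin, was 29.7-fold higher by the fitted log2 fold of 4.89 ± 0.73 (SE), and Slc13a4, a sodium-dependent sulfate transporter, 5.09-fold higher by 2.35 ± 0.46 (SE). The share called higher was 2 of 10, against 3.64% of the 17375 genes tested across the genome (edgeR's quasi-likelihood test, adjusted p under 0.05 over all genes, called the edgeR adjusted p below). By edgeR 0 of 10 were called lower, against 2.16% of all genes. Without the adjustment, the edgeR p was under 0.05 for 3 of the 10 genes, all of them higher in IP. Of the 17375 genes 2319 were higher and 1633 lower at that p. The same 2 genes, and 0 lower, were called by DESeq2, which called 8.14% of all genes higher and 5.61% lower. Scaling by total counts (3.75% of all genes higher) and leaving out the filter (2.33%) also left these 2 genes called. In bulk libraries such as these, fewer cells of a type and less RNA per cell cannot be told apart. The median log2 fold of the 10 genes was 0.38, beside 0.06 over all genes tested. Levels are given as CPM, counts scaled to the same total in every library, with TMM factors that correct the totals for differences in RNA composition.

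The sequence just before a RefSeq start is given for both genes that rose and for a pair that did not. Shown are the 120 bases before the first RefSeq start (build GRCm38, the same assembly as mm10), 5′ to 3′ on the strand of the gene, with matches to the letters GTTGCC on either strand in capitals. GTTGCC is a core half-site of the X-box, the element bound by RFX factors at many cilium genes. The stretches lie at chr9:62857984-62858103 (plus strand) for Calml4, chr6:35308127-35308246 (minus) for Slc13a4, chr16:92292269-92292388 (plus) for Kcne2 and chr6:55336179-55336298 (plus) for Aqp1. The gene starts in the GENCODE annotation lie inside the stretches of Calml4 (62858080) and Slc13a4 (35308131) and beyond that of Aqp1 (55336432).
Calml4: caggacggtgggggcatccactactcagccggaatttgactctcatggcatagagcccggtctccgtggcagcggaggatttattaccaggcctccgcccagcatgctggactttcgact
Slc13a4: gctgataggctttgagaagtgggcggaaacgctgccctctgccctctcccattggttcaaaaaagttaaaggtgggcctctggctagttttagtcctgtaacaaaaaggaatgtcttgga
Kcne2: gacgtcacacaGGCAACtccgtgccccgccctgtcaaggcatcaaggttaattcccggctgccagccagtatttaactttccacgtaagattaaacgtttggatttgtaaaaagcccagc
Aqp1: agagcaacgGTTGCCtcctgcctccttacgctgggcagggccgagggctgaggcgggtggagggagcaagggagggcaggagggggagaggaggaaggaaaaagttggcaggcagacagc

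Of the 10 genes, 7 had promoters in the RefSeq table, 11 in all, each reaching from 250 bases before to 50 after a start. GTTGCC was found in promoters of 3 of these 7 genes (Kcne2, Aqp1 and Otx2) and of 14.1% of all 27025 genes in the table. By promoter it was in 4 of 11, of which 2 are windows of Otx2 that overlap and share a match, and in 12.5% of all 32851. TAATCC, the core letters bound by Otx2, was found on either strand in 1 of the 11, a promoter of Otx2 itself, and in 7.06% of all promoters. The letters of the 2 motifs do not overlap. Neither motif was in the windows of Calml4 and Slc13a4 that were searched, which says only that these letters are not there. Kl and Slc4a5, which were not called in IP, had no match either, so the pair shown above does not stand for all genes not called.

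Counts assigned to genes ranged from 37203427 to 52175180 per library, so that 3 counts correspond to 0.0575 to 0.0806 CPM (counting error only). By edgeR 14 of 16 ependymal markers were higher in IP, with a median log2 fold of 5.15, beside 3.64% of all genes called higher. The marker lists were chosen with earlier results of these data known, so their counts are a description and no independent support. Of the 16 ependymal markers 15 had a positive log2 fold, and Spag6l had the lowest at -2.43. The count called higher was 9 with the block, 8 without the filter, 11 without IP 3, 1 without IP 4 and 2, 1, 0 and 0 without Inputs 1, 2, 3 and 4, while 15 had an unadjusted p under 0.05 and were higher in each of these fits. Of all genes, 0.553% were called higher with the block, 2.33% without the filter, 1.91% without IP 3 and 0.0556% without IP 4. The shares without Inputs 1, 2, 3 and 4 were 0.123%, 0.0704%, 0.0235% and 0.0236%. Of 13 tested markers of leptomeningeal and stromal fibroblasts, the connective tissue cells of the meninges and of the core of the plexus, 7 were higher, with a median of 3.68. Here the count was 2 with the block, 4 without the filter, 3 without IP 3 and 0 by edgeR without IP 4 or any 1 Input, with 9 to 11 higher at an unadjusted p under 0.05 and 9 called by DESeq2 over all libraries. Of 10 endothelial markers Cdh5 alone was called and rose, and 2 of 8 astrocyte markers (Mlc1 and Gfap) rose. None of these 3 was called by edgeR with the block or when IP 3, IP 4 or any 1 Input was left out. Over all libraries 0 of 10 neuronal and 0 of 4 erythroid markers were called by edgeR. Without the adjustment edgeR put 3 neuronal, 2 erythroid and 2 endothelial markers lower and 1 endothelial marker higher at a p under 0.05. Of all 17375 genes 1633 were lower and 2319 higher at that p. By DESeq2, 0 neuronal markers, 2 erythroid and 1 endothelial marker were called lower. IP 1 stood apart. Reads in no gene were 18.4% of its reads, against 8.8% in IP 3, 8.1% in IP 4 and 15.2% to 18.2% in the Inputs. Reads aligned to several places were 19.8% in IP 1, 29.6% in IP 3, 39.3% in IP 4 and 20.9% to 21.2% in the Inputs. Foxj1, the transcription factor of motile cilia, had 32.2 CPM in IP 1, against 345 in IP 3, 427 in IP 4 and 4.34 to 13.0 in the Inputs. Dcdc2a, whose promoter drives the tag, had 43.6, 411 and 175 CPM in IP 1, IP 3 and IP 4 and 27.7 to 73.9 in the Inputs. It was not called by edgeR (log2 fold 2.21 ± 0.63 SE, edgeR adjusted p = 0.0743, and 0.00205 without IP 1). By DESeq2 it was called higher over all libraries (DESeq2 adjusted p = 0.00178). Reads that fell on more than 1 gene also differed by group, at 2.88% to 3.27% of the reads on genes in IP and 14.7% to 21.3% in Input. Such reads were counted to no gene. Of the 10 choroid plexus genes Otx2 alone shares exon bases with another gene model, 154 with the antisense Otx2os1 and 168 with Gm49154, which come to 3.65% and 3.98% of its exon bases, and its counts are uncertain for that reason.

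Calml4 (ENSMUSG00000032246.14, chromosome 9, 62858080 to 62875921, plus strand) had 17.0, 223 and 179 CPM in IP 1, IP 3 and IP 4. In Inputs 1 to 4 it had 4.76, 3.17, 5.95 and 4.94 CPM. Every IP lay above every Input, IP 1 by far the least, and the Inputs were close together. The group means were 140 ± 109 (SD, n = 3) and 4.71 ± 1.15 CPM (SD, n = 4), and the edgeR adjusted p was 0.0136. The fold stood at the 99.1st percentile of all genes tested, where Foxj1 also stood (log2 fold 5.03 ± 0.78 SE). Paired by number, the log2 ratio of IP to Input was 1.83, 5.22 and 5.17 for Calml4 (numbers 1, 3 and 4) and 1.31, 5.20 and 6.10 for Foxj1. IP 3 held 13.1 times and IP 4 10.5 times the Calml4 level of IP 1, beside 10.7 and 13.3 times for Foxj1. The genes with the pattern most like that of Calml4 over the 7 libraries were Rassf9 (Pearson r = 0.999 of log2 CPM), Dnaaf1 (0.995), Iqcg (0.995), Hspa2 (0.995) and Ptgds (0.993), of 11196 genes with a mean of at least 5 CPM. Slc13a4 ranked 334 on that scale. Dnaaf1 is needed to assemble the dynein arms of motile cilia, and Ptgds makes prostaglandin D2. These libraries share the split into IP and Input, and the coefficients describe that pattern only. The 16 ependymal markers summed to 269, 3730.2 and 2972 CPM in IP 1, IP 3 and IP 4 and to 54.6 to 80.4 CPM in the Inputs. Calml4 and this sum were both lowest in IP 1 and highest in IP 3 among the IP libraries, as were Slc13a4, Clic6 and Otx2. The part of ependymal cells in the Calml4 result was not tested.

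Slc13a4 (ENSMUSG00000029843.4, chromosome 6, 35267957 to 35308131, minus strand) had 33.7, 111 and 63.6 CPM in IP 1, IP 3 and IP 4. Its Inputs held 17.8, 5.97, 18.8 and 11.9 CPM. All IP libraries were above all Inputs, and the lowest IP was less than 2-fold above the highest Input. The means were 69.3 ± 38.8 (SD, n = 3) and 13.6 ± 5.94 CPM (SD, n = 4), with an edgeR adjusted p of 0.0231. Within numbers 1, 3 and 4 the log2 ratios were 0.92, 2.55 and 2.41. Beside its use in plexus, the sulfate transporter is a known gene of leptomeningeal fibroblasts. A set of 11 markers of these fibroblasts, leaving out Ptgds and Nnat, which other brain cells hold in quantity (left out after the values were seen), summed to 101, 851 and 474 CPM in IP 1, IP 3 and IP 4, and to 35.3 to 79.9 CPM in the Inputs. Slc13a4 and these markers were both highest in IP 3 and lowest in IP 1 among the IP libraries. Calml4, Clic6, Otx2 and the summed ependymal markers had this order too, so it does not set the fibroblast markers apart. Aldh1a2, which makes retinoic acid in the meninges, rose too, with 4.27 ± 0.63 (SE) as its log2 fold (edgeR adjusted p = 0.0129). Of the fibroblast markers Dpep1 was at 0 in every IP and Slc47a1 was at 0.200 CPM in IP 1 and at 0 in IP 3 and IP 4. The part of these cells in the Slc13a4 result was not tested.

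The calls of Calml4 and Slc13a4 depended on the pairing and on single libraries. With the replicate number as a block neither was called (log2 fold 4.19, edgeR adjusted p = 0.0806, and log2 fold 1.98, edgeR adjusted p = 0.0887). That fit called 0 of 10 genes and 0.553% of all genes higher. At an unadjusted p under 0.05 it put 2 of the 10 higher, beside 1557 of all 17375 genes. Without IP 3 Slc13a4 was not called (edgeR adjusted p = 0.0518), and without IP 4 or any 1 of the Inputs neither was, with an edgeR adjusted p of 0.0503 to 0.0585 for Calml4 and 0.0647 to 0.0820 for Slc13a4. Of all genes, 1.91% were called higher without IP 3, 0.0556% without IP 4, and 0.123%, 0.0704%, 0.0235% and 0.0236% without Inputs 1, 2, 3 and 4. The log2 folds stayed between 4.39 and 5.42 for Calml4 and between 1.83 and 2.68 for Slc13a4 when 1 library was left out.

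**Figure D1:**
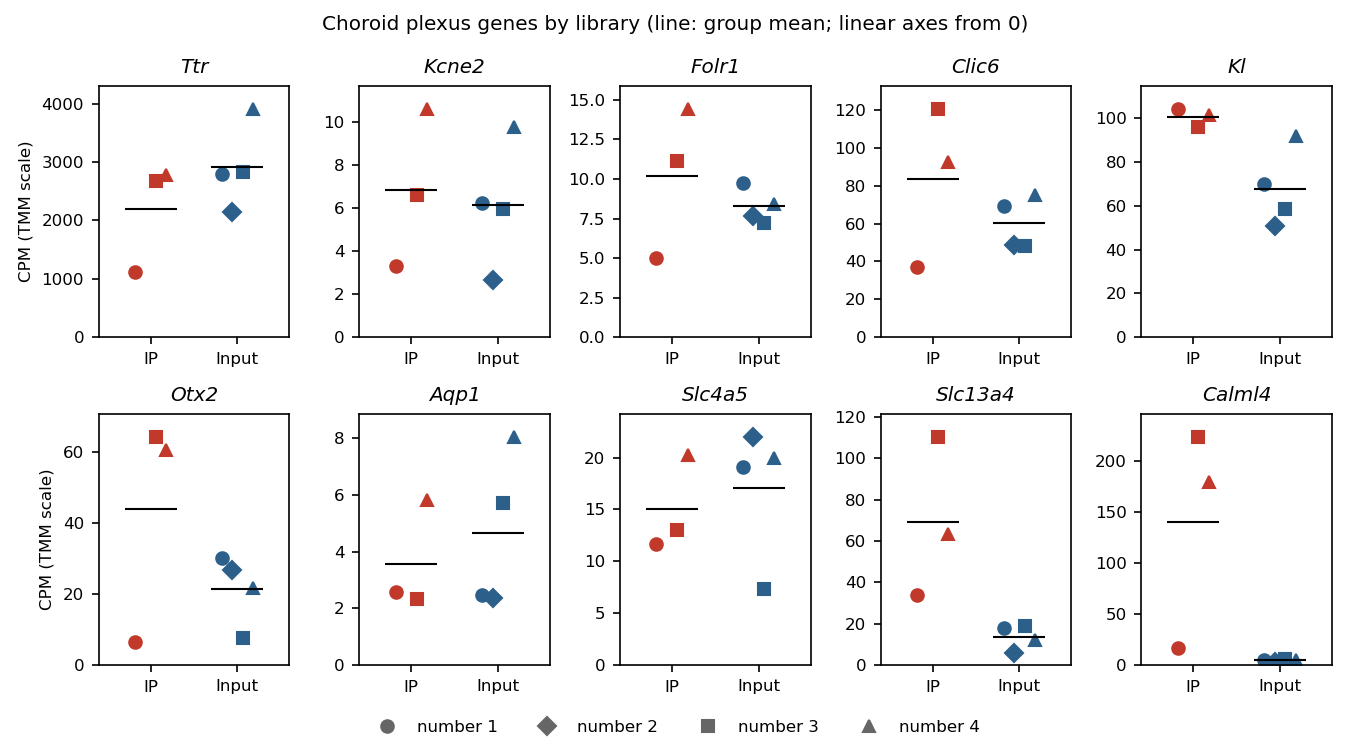
Level of each choroid plexus gene in CPM (linear vertical axes that start at 0) in 3 IP libraries (red) and 4 Input libraries (blue), with a line at the group mean and a marker shape for the library number. Calml4 and Slc13a4 are above every Input in all 3 IP libraries, and IP 1 is the lowest IP for all genes except Kl and Aqp1.

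Ttr, which encodes transthyretin, the carrier of thyroid hormone and of retinol-binding protein in cerebrospinal fluid, did not pass the test. It had 1117, 2669 and 2774 CPM in IP 1, IP 3 and IP 4 and 2793, 2137, 2830.3 and 3910.2 CPM in Inputs 1 to 4. IP 1 lay below every Input, while IP 3 and IP 4 lay within the Input range. The log2 fold was -0.42 ± 0.32 (SE, edgeR adjusted p = 0.493), and it stayed negative in every fit that left out 1 library (-0.62 to -0.10). Paired by number, its log2 ratio of IP to Input was -1.32, -0.08 and -0.50.

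The channel subunit Kcne2 (chromosome 16, 92292389 to 92298129, plus strand), which with KCNQ1 sets potassium flux at the apical membrane of plexus cells, did not pass either. It had 3.28, 6.59 and 10.6 CPM in the IP libraries and 6.21, 2.66, 5.92 and 9.73 CPM in the Inputs. The groups overlapped fully. Its log2 fold was 0.15 ± 0.56 (SE, edgeR adjusted p = 0.907). The direction turned with the block (-0.21), without IP 4 (-0.31) and without Input 2 (-0.10).

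Folr1 (chromosome 7, 101858331 to 101870788, minus strand), the folate receptor through which plexus passes folate into the ventricle, had 5.01, 11.1 and 14.4 CPM in IP and 9.76, 7.67, 7.21 and 8.45 CPM in Input. IP 1 was below all Inputs and the other IP libraries above all of them. The log2 fold of 0.30 ± 0.42 (SE) was not called (edgeR adjusted p = 0.739), and without IP 4 it was -0.03. Across the Inputs Folr1 was the steadiest of the 10 genes, with the highest 1.35 times the lowest.

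Clic6 (chromosome 16, 92485736 to 92541243, plus strand), a member of the chloride intracellular channel family, showed the same split among the IP libraries. It had 36.9 CPM in IP 1, 121 in IP 3 and 92.6 in IP 4, against 69.4, 48.6, 48.1 and 75.0 CPM in the Inputs. IP 1 was again below all Inputs, and IP 3 and IP 4 were above all of them. Over all libraries the log2 fold was 0.47 ± 0.36 (SE, edgeR adjusted p = 0.496). Without IP 1 it was 0.82 and was called (edgeR adjusted p = 0.0160).

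Otx2 (chromosome 14, 48657677 to 48673819, minus strand), the homeobox factor that sets and keeps plexus identity, behaved likewise with a wider spread. It had 6.43, 64.3 and 60.6 CPM in IP 1, IP 3 and IP 4, and 30.1, 26.6, 7.59 and 21.6 CPM in Inputs 1 to 4. IP 1 was the lowest of all 7 libraries and IP 3 and IP 4 the highest. The log2 fold was 1.03 ± 0.69 (SE, edgeR adjusted p = 0.433). Without IP 1 it was 1.54 and was called (edgeR adjusted p = 0.0126). Within numbers, the log2 ratios of -2.22, 3.08 and 1.49 spanned both directions. Without IP 1, 4 of the 10 genes (Calml4, Slc13a4, Otx2 and Clic6) were called higher, beside 12.5% of all genes tested in that fit.

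Kl (chromosome 5, 150952607 to 150993817, plus strand) encodes Klotho, the coreceptor for FGF23, and its level was the most even of the IP group. It had 104, 95.8 and 101 CPM in IP and 70.1, 50.9, 58.3 and 92.0 CPM in Input. Every IP was above every Input, as for 9.55% of all genes, and 3 of the 10 choroid plexus genes had this order. The lowest IP exceeded the highest Input by little. The log2 fold of 0.57 ± 0.23 (SE) was not called (edgeR adjusted p = 0.177, and 0.103 to 0.380 when 1 library was left out). Kl was 1 of a pair of genes, with Aqp1, that were not lowest in IP 1 among the IP libraries.

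Aqp1 (chromosome 6, 55336432 to 55348555, plus strand), the apical water channel of plexus cells, had 2.56, 2.31 and 5.83 CPM in IP and 2.45, 2.35, 5.71 and 8.06 CPM in Input. The groups overlapped, and both IP 4 and Input 4 were high within their group. The log2 fold was -0.38 ± 0.66 (SE, edgeR adjusted p = 0.793), and without Input 4 it was 0.03. Aqp1 is also a protein of red cells. The 4 tested erythroid markers summed to 3.79 to 20.6 CPM in IP and to 77.0, 36.9, 15.5 and 20.5 CPM in Inputs 1 to 4. The part of red cells in the Aqp1 levels was not tested.

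Slc4a5 (chromosome 6, 83219828 to 83304945, plus strand), a sodium bicarbonate cotransporter of the plexus, had 11.7, 13.0 and 20.3 CPM in IP and 19.1, 22.0, 7.34 and 19.9 CPM in Input. Input 3 was the lowest of all 7 libraries, and the groups overlapped. Its log2 fold was -0.19 ± 0.41 (SE, edgeR adjusted p = 0.841) and turned to 0.04 with the block.

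**Figure D2:**
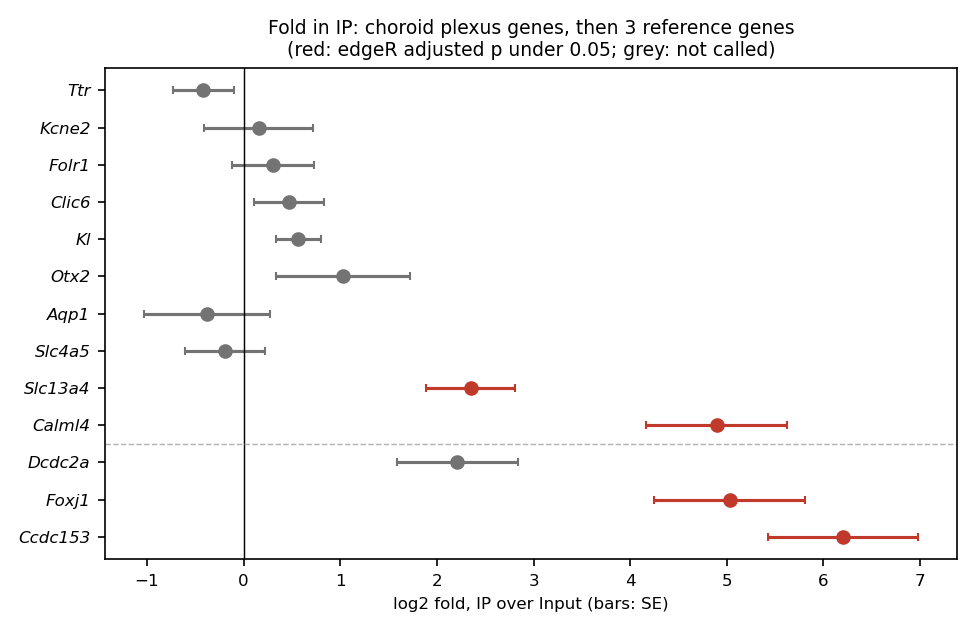
Log2 fold of IP over Input with its standard error for the 10 choroid plexus genes and, under the dashed line, Dcdc2a, Foxj1 and Ccdc153, a gene of motile cilia. Red points passed an edgeR adjusted p of 0.05 (Calml4 at 4.89, Slc13a4 at 2.35, Foxj1 and Ccdc153), and the 8 grey choroid plexus genes lie between -0.42 and 1.03.

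**Figure D3:**
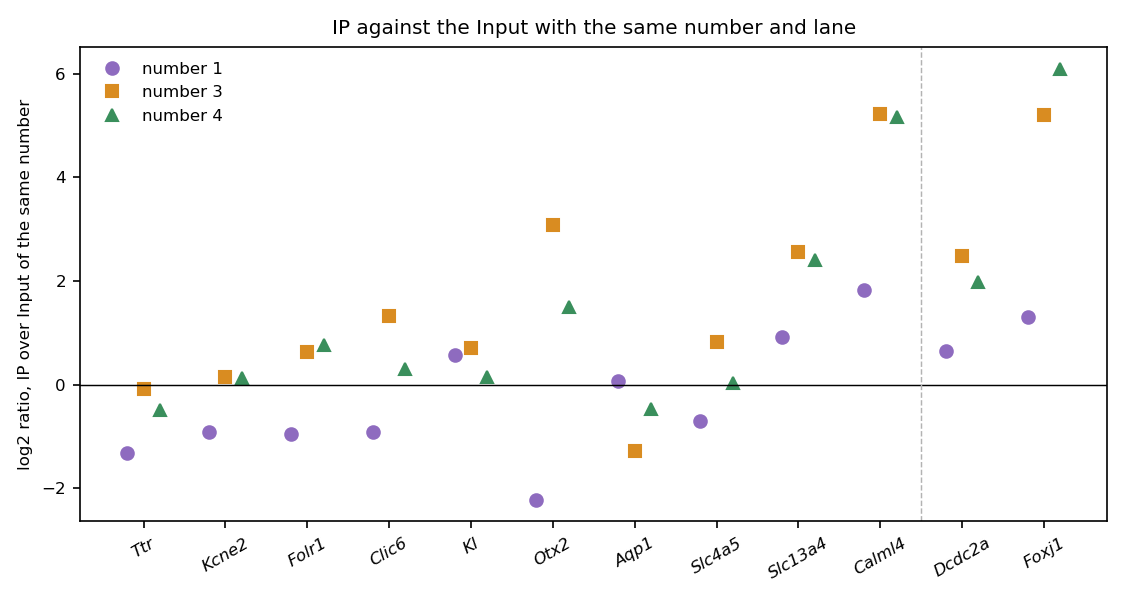
Log2 ratio of each IP to the Input with the same number, which the labels place on the same sequencing lane, for the choroid plexus genes and, right of the dashed line, Dcdc2a and Foxj1. Number 1 is the lowest point for 8 of the 10 choroid plexus genes, and for Calml4 it is 1.83 against 5.22 and 5.17.

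Levels of different genes were set side by side per kilobase of exon (RPKM, from the merged exons of GENCODE M21). In the Inputs Ttr stood at 2460.2 ± 619 RPKM (SD, n = 4), 160-fold above Clic6, the next, at 15.4 ± 3.56. Kl followed at 7.27 ± 1.92 RPKM, below the range of Clic6. From Kl downward each gene overlapped the next in range: Otx2 at 5.08 ± 2.34, Folr1 at 3.60 ± 0.49, Kcne2 at 3.47 ± 1.63, Slc13a4 at 3.01 ± 1.31, Slc4a5 at 2.95 ± 1.14, Aqp1 at 1.77 ± 1.05 and Calml4 at 1.29 ± 0.32 RPKM. In IP Ttr stayed first at 1844 ± 782 RPKM (SD, n = 3). Below it Calml4 and Slc13a4 moved up, and the other genes kept their order among themselves by the mean. By its mean, Calml4, the lowest of the 10 in Input, was next to Ttr in IP at 38.4 ± 29.8 RPKM, ahead of Clic6 (21.3 ± 10.9) and Slc13a4 (15.3 ± 8.56). That place rests on IP 3 (61.3 RPKM) and IP 4 (49.2 RPKM). In IP 1 Calml4 had 4.68 RPKM, below Ttr, Kl (11.2), Clic6 (9.43) and Slc13a4 (7.45).

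Total RNA held the genes in unequal proportion from dissection to dissection. The highest Input was 1.35 times (Folr1) to 3.97 times (Otx2) the lowest. Input 4 was highest for Ttr, Kcne2, Clic6, Kl and Aqp1, Input 3 for Slc13a4 and Calml4, Input 1 for Folr1 and Otx2, and Input 2 for Slc4a5. Among the Inputs, Folr1, Clic6, Otx2 and Slc4a5 were all lowest in Input 3, where Slc13a4 and Calml4 were highest. Over all 7 libraries Folr1 and Otx2 (Pearson r = 0.906), Clic6 and Otx2 (0.887) and Clic6 and Folr1 (0.882) were most alike after Calml4 and Slc13a4 (0.940). Ttr was most like Kcne2 (0.742) and least like Kl (-0.145).

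The other genes were also set against Ttr, to see whether IP and Input held them in the same ratio to it. Among the Inputs alone the ratio to Ttr varied 1.22-fold for Kl, 1.46-fold for Clic6 and 1.66-fold for Folr1, but 4.62-fold for Otx2, 3.95-fold for Slc4a5 and 2.32-fold for Aqp1, so that the ratio was not fixed for all of them. In likeness to Ttr over the 7 libraries Kcne2 ranked 840 among 11196 genes. For every 1000 counts of Ttr, Kl had 25.1, 23.8, 20.6 and 23.5 counts in Inputs 1 to 4 and 93.3, 35.9 and 36.5 in IP 1, IP 3 and IP 4. Clic6 had 24.9, 22.7, 17.0 and 19.2 counts per 1000 of Ttr in Input and 33.0, 45.2 and 33.4 in IP. Folr1 had 3.50, 3.59, 2.55 and 2.16 in Input and 4.48, 4.18 and 5.20 in IP. In each of these the IP libraries lay above all Inputs, as they did for Slc13a4 (22.9 to 41.4 against 2.79 to 6.65) and Calml4 (15.3 to 83.7 against 1.26 to 2.10). This order held for 5 of 9 genes, beside 16.4% of all genes tested. The group differences in the log2 ratio to Ttr were 4.74 for Calml4, 2.81 for Slc13a4, 1.12 for Otx2, 1.10 for Kl, 0.83 for Clic6, 0.67 for Folr1, 0.63 for Kcne2, 0.38 for Slc4a5 and 0.19 for Aqp1. The median of this difference over all genes was 0.49, since each difference holds the group difference of Ttr in mean log2 CPM with its sign turned. That difference is not the edgeR log2 fold of Ttr (-0.42), which is fitted otherwise. The exact permutation test over libraries (two-sided) gave p = 0.0571 for the 5 separated genes, the smallest that 3 against 4 libraries allow, and 0.103 after adjustment over the 9 ratios. Kcne2 had p = 0.114, Otx2 0.229, Slc4a5 0.514 and Aqp1 0.686 by the same exact test.

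With Ttr as 1 of several plexus genes in the reference, the IP libraries of Slc13a4 and Calml4 still lay above all Inputs and those of Kl, Clic6 and Folr1 did not. With the mean log2 level of Ttr, Kcne2, Folr1 and Clic6 as reference (leaving out the gene itself), 2 of the 9 genes had every IP above every Input, beside 7.52% of all genes. Their differences were 4.21 for Calml4 and 2.27 for Slc13a4, while Kl differed by 0.56, Clic6 by 0.39, Folr1 by 0.19 and Kcne2 by 0.13. Ttr relative to the mean of Kcne2, Folr1 and Clic6 was lower in every IP (log2 ratios of 7.03, 7.01 and 6.84) than in every Input (7.43, 7.73, 7.79 and 7.73), as were 5.64% of all genes. The difference of -0.71 in the log2 ratio stood beside a median of -0.22 over all genes.

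**Figure D4:**
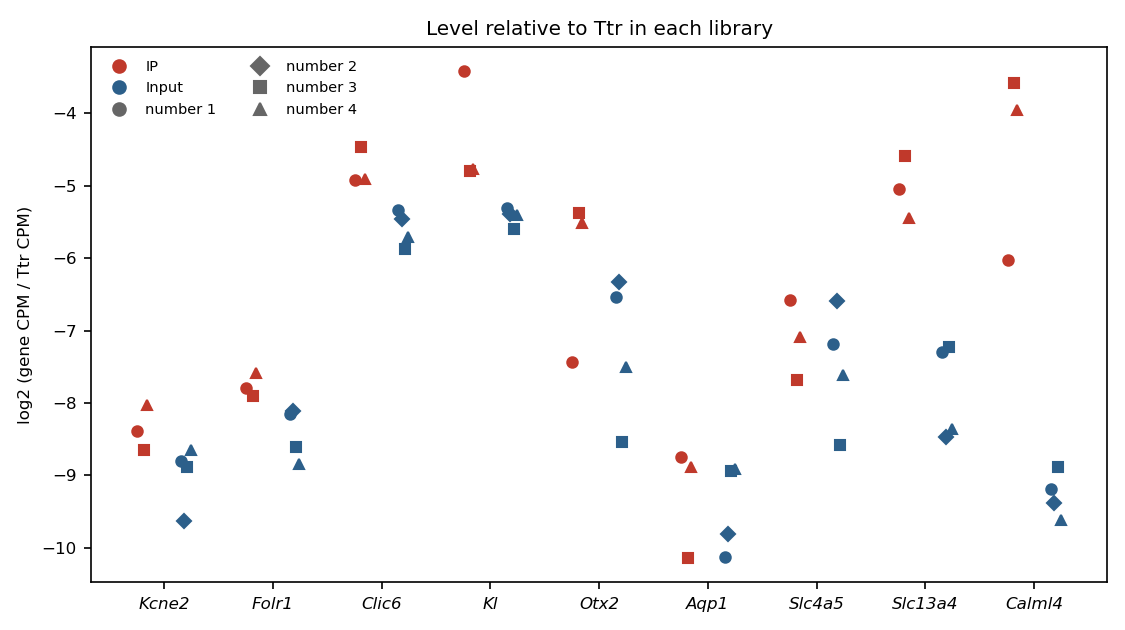
Log2 ratio of each gene to Ttr in the 3 IP (red) and 4 Input (blue) libraries. For Folr1, Clic6, Kl, Slc13a4 and Calml4 the IP points all lie above the Input points, by the widest gap for Calml4 (-6.03 to -3.58 in IP and -9.62 to -8.88 in Input).

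A wider set of 55 tested plexus genes, grouped by role, gave 5 genes that rose and 0 that fell by edgeR, beside 3.64% and 2.16% of all genes. Before adjustment 15 were higher and 2 lower at a p under 0.05 (edgeR), beside 2319 and 1633 of all 17375 genes. By DESeq2 10 were called higher and 0 lower, beside 8.14% and 5.61% of all genes. In 4 of the 55 the IP libraries lay above all Inputs, and in 2 they lay below, beside 9.55% and 10.4% of all genes. The median log2 fold was 0.54. With the block edgeR called 0 of the 55, and 8, all higher, had an unadjusted p under 0.05. Of all 17375 genes 1557 were higher and 1343 lower at that p with the block. Without IP 1, 15 of the 55 were called higher, and without IP 3, 1 was (Lbp), beside 12.5% and 1.91% of all genes. Slco1a5 and Krt8, listed but left out by the filter over all libraries, were also called higher without IP 1. Without IP 4 or any 1 Input none was called by edgeR, with 7 to 14 higher at an unadjusted p under 0.05. In those fits 1794 to 1897 of all 16976 to 17996 genes tested were higher at that p.

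All 5 genes that rose encode secreted proteins, from a list of 17 tested genes for secreted proteins and receptors with a median log2 fold of 1.06. Lbp, the lipopolysaccharide-binding protein, had 18.2, 62.2 and 84.8 CPM in IP and 5.50 to 11.1 CPM in Input (log2 fold 2.68 ± 0.47 SE, edgeR adjusted p = 0.0169). Igfbp2, a binding protein for insulin-like growth factors, had 15.4, 88.3 and 57.1 CPM in IP and 7.45 to 13.3 in Input (2.39 ± 0.49 SE, edgeR adjusted p = 0.0256). All IP libraries were above all Inputs for both. Bmp6 (3.34 ± 0.74 SE), Bmp7 (1.94 ± 0.48 SE) and Cp, the copper protein ceruloplasmin (2.69 ± 0.60 SE), were named after their values were seen, with edgeR adjusted p-values of 0.0357, 0.0435 and 0.0330. In IP 1 Cp (7.15 CPM) and Bmp6 (9.01 CPM) lay within the Input range. Igfbp2 and the bone morphogenetic proteins are also made in the meninges, whose markers rose as given above, and that part was not tested. Prlr, the prolactin receptor, had the lowest fold of the list, -0.37 ± 0.36 (SE, edgeR adjusted p = 0.610).

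None of 21 genes for transport and channels, 6 transcription factors or 11 genes for junctions and cytoskeleton was called by edgeR over all libraries. Before adjustment, an edgeR p under 0.05 was reached by 3 transport genes (1 higher, 2 lower), 3 transcription factors, all higher, and 0 junction genes. Among all 17375 genes 2319 were higher and 1633 lower at that p. By DESeq2 Slc9a3r1 and Tcf7l1 were called higher. The medians were 0.27, 1.49 and 0.42 in log2 fold. Among the transporters, Slc9a3r1, a scaffold for apical transporters, had 1.32 ± 0.45 as its log2 fold (SE, edgeR adjusted p = 0.118), Kcna1, a potassium channel that neurons use too, -0.44 ± 0.17 (SE, edgeR adjusted p = 0.163), and Atp1b1, the beta subunit of the sodium pump, -0.52 ± 0.22 (SE, edgeR adjusted p = 0.198). Slc9a3r1 was called without IP 1 (edgeR adjusted p = 3.31e-05). Of the transcription factors, Tcf7l1 had 1.78 ± 0.61 (SE, edgeR adjusted p = 0.116, and 0.00317 without IP 1) on the same scale, and Rfx3, which drives cilium genes, 0.09 ± 0.21 (SE, edgeR adjusted p = 0.851). Lmx1b was at 0.351 to 0.441 CPM in IP and at 0 to 0.0671 in Input (edgeR adjusted p = 0.165), at or near the level of 3 counts in Input, and its fold is not given. In the last list Krt18 (1.83 ± 0.85 SE, edgeR adjusted p = 0.236), Wdr86 (1.47 ± 0.82 SE, edgeR adjusted p = 0.327) and the cadherin Cdh1 (-1.37 ± 1.30 SE, edgeR adjusted p = 0.594) did not pass. Without IP 1, 3 of 22 transport genes, 2 of 6 transcription factors and 2 of 13 junction genes were called higher by edgeR. In that fit 12.5% of all genes were called higher. Besides Slc9a3r1 and Tcf7l1 these were Slc31a1, Slco1a5, Msx1, Krt8 and Vamp8, named after their values were seen. Slco1a5, which the filter left out over all libraries, had 0.0200, 1.74 and 4.14 CPM in IP and 0 to 0.109 in Input.

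**Figure D5:**
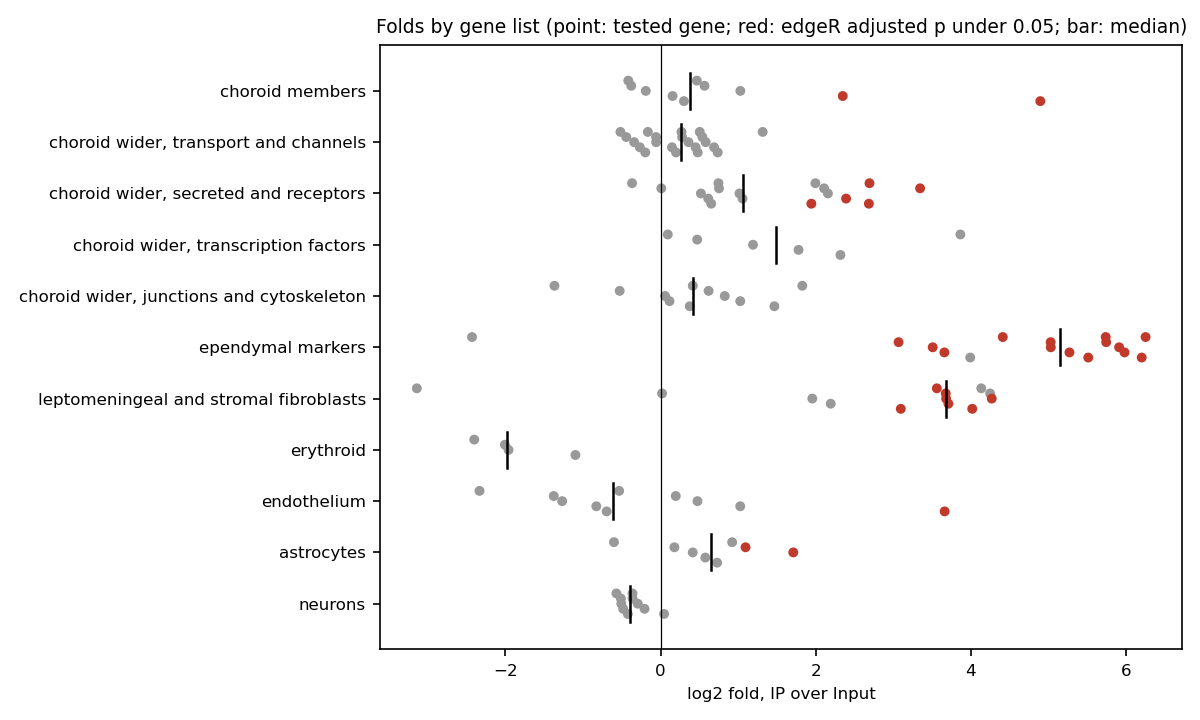
Log2 fold of IP over Input for every tested gene of each list, red where the edgeR adjusted p was under 0.05, with a bar at the list's median. The choroid plexus lists have medians from 0.27 to 1.49, and the ependymal markers and fibroblast markers have medians of 5.15 and 3.68.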

How the data were processed

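The deposited tables hold raw read counts per gene symbol, 1 table for each library, which the authors did not normalise. STAR 2.0.0e, HTSeq and the build mm10 are named in the submitters' processing notes. For their settings, annotation and strand, and for the library kit, the entry is: not given in the sources used here. The lines for reads in no gene, in several genes or aligned to several places (40.1% to 52.1% per library) and the symbol "unknown" stayed out.

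Genes were kept with filterByExpr (minimum count 10, minimum total count 15), which left 17375. IP (n = 3) was compared with Input (n = 4) with edgeR 4.0.16 in R 4.3.3 (TMM, robust glmQLFit, glmQLFTest, group as the only term) and Benjamini-Hochberg adjustment over all genes, threshold 0.05. The SE was obtained from the log2 fold and its F statistic (fold over root F). Log2 levels, ratios and correlations used log2 CPM with a prior count of 2. Exact permutation tests used scipy 1.17.1. The fit was tested on simulated counts. DESeq2 1.42.0, total counts, no filter, the replicate block and leaving out each library were tried.

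Positions and exon lengths came from GENCODE M21 and promoters from RefSeq (GRCm38.p6), both on the assembly of mm10. RPKM assumes that the merged exons were those counted.

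The members and all gene lists were chosen with earlier results of these data known. Named were the 10 members, Foxj1, Ccdc153 and Dcdc2a, of each wider plexus list the 2 genes with the smallest p and that with the lowest fold, of each list of another cell type the 2 with the smallest p, and the 5 genes most like Ttr and the 5 most like Calml4, skipping models without a proper name. Of the symbols listed, Ecrg4, 2900040C04Rik, Hba-a1, Hbb-bt, Hbb-b1 and Epb42 were not matched.

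For the block and for ratios within numbers, library numbers were taken to pair IP with Input. The labels put both libraries of a number on the same lane (number 1 on lane 4, 3 on lane 2 and 4 on lane 3). They do not say whether a number also marks the same animals or homogenate. The main fit did not use the pairing. Across genes, the deviations of an IP and an Input of 1 number from the means of their groups correlated by 0.0318, 0.0426 and 0.0258. For an IP and an Input of different numbers the coefficients ran from -0.0391 to 0.0119. All of these are near 0, and whether the numbers mark true pairs was not tested.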

Additional observations from a re-analysis of the deposited data

Results flagged for a closer look

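Among 54 sets of 4 Input values examined (levels of the named genes and ratios to Ttr), 2 held a library far from the other 3 by Dixon's criterion, where chance gives about 1 in 20 sets. Mlc1, an astrocyte gene, had 23.4 CPM in Input 3 against 33.0 to 33.5 CPM in the other Inputs. Ptgds had 356 CPM in Input 2 against 446 to 462 CPM in the others. None of the 10 choroid plexus genes was set apart in this way.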

How the results depend on the processing

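With the replicate block the genes called numbered 96 higher and 33 lower in place of 633 and 376, and 0 of the choroid plexus genes and 0 of the wider set were called. DESeq2 called 1396 higher and 962 lower, and 10 of the wider set. Leaving out 1 library gave 4 to 2259 genes higher and 16 to 1724 lower, 0 to 4 of the 10 choroid plexus genes higher and 0 to 15 of the wider set. IP 1 alone raised these counts when left out. The causes were not tested. With the mean of Ttr, Kcne2, Folr1 and Clic6 as reference 2 ratios were separated in place of 5. With total counts and without a filter these counts stayed within 1.5 times, and no named gene that was called turned its direction under any alternative. Of 495 refits of single named genes 97 lost the call and 16 gained it. The block changed no call of a choroid plexus gene besides those of Calml4 and Slc13a4. Kcne2, Folr1 and Aqp1, at 2.31 to 14.4 CPM, had SEs of 0.42 to 0.66 in log2 fold, and a missed threshold does not show that their levels were equal.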

Other observations

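The genes whose levels over the 7 libraries were most like that of Ttr were Tgfbr1 (Pearson r = 0.982 of log2 CPM), Rpl29 (0.977), Arf6 (0.977), Rplp2 (0.977) and Atox1 (0.975). Tgfbr1 is a receptor for TGF-beta, Rpl29 and Rplp2 are ribosomal proteins, Arf6 is a small GTPase of membrane traffic and Atox1 is a copper chaperone. None of the 5 was called between IP and Input by edgeR (log2 folds from -0.49 to -0.22), and none is on a plexus list used here. Of the plexus genes, Folr1 ranked 1471 in likeness to Ttr and Clic6 1543.

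Genes of other cells around the ventricle were measured with the same libraries. The neuronal genes Snap25 (-0.48 ± 0.18 SE) and Stmn2 (-0.57 ± 0.18 SE) had negative log2 folds that did not pass (edgeR adjusted p = 0.150 and 0.0954) and passed without IP 1 (0.0215 and 0.00455). The globin genes Hbb-bs (-2.01 ± 0.72 SE) and Hbb-b2 (-2.40 ± 0.83 SE) likewise passed only without IP 1 among the fits that left out a library (edgeR adjusted p = 0.00322 and 0.00561, against 0.135 and 0.121). Plvap, a gene of the fenestrated vessels that plexus has and most brain vessels lack, had 0.132 to 1.36 CPM in IP and 3.02 to 5.39 CPM in Input (edgeR adjusted p = 0.149, and 0.0362 without IP 1), and every IP was below every Input. The endothelial gene Cdh5 went the other way (log2 fold 3.66 ± 0.84 SE, edgeR adjusted p = 0.0356, or 0.244 when blocked).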
